A study of Mus musculus with 22 samples.

Results

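The 10 genes described here encode ligands, receptors and an inhibitor of transforming growth factor beta (TGF-beta) and bone morphogenetic protein (BMP) signalling. They were taken by name from 54514 gene entries: the ligand genes Tgfb1, Tgfb2, Tgfb3, Bmp4 and Bmp7, the receptor genes Tgfbr1, Tgfbr2, Tgfbr3 and Tgfbr3l, and Smad7. The set was chosen by gene name, and its rule cites a measured value: the dDAVP difference of Tgfbr3l in wild-type (WT) cells, which is among the largest decreases of the series. Values of these 10 genes in the dDAVP comparison are therefore a description and carry no test, whereas the rule did not use the GFP comparison, although results of that comparison were known when the set was proposed.

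RNA was sequenced from mpkCCD cells (mpkCCDc11 clone 38), an immortalised mouse line of the cortical collecting duct, the kidney segment in which vasopressin sets water uptake through the channel aquaporin-2 (Aqp2). The 22 libraries fall into 10 groups. Unsorted WT cells without dDAVP (labelled untreated, and called control here) and WT cells with dDAVP, a synthetic vasopressin analogue acting on the V2 receptor, have 3 libraries each. The 4 GFP reporter lines C1, C11, C43 and C50 each give GFP-negative and GFP-positive cells, 2 libraries per line and fraction, and all 16 of these libraries come from cells given dDAVP. All cells were polarised on permeable supports in a serum-free medium that contained dexamethasone. The labels name more than one dDAVP dose and duration without tying them to libraries, and they do not give the promoter that drives GFP. The protocol also speaks of vehicle, where the control labels say untreated, and of forskolin, which no library's label names. Each reporter line carries a clone name, so the number of independent reporter lines is 4. Nothing in the labels says that replicates came from separate cultures, so p-values measure the spread between libraries, which may be technical.

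TGF-beta ligands are secreted in a latent form and, once released, bring together the type II receptor Tgfbr2 and the type I receptor kinase Tgfbr1, which phosphorylates Smad2 and Smad3. BMP ligands use related receptors and Smad1, Smad5 and Smad9. Smad7 binds activated type I receptors and blocks them, and its own transcription is a direct response to the pathway. In the kidney, TGF-beta is known for driving matrix deposition, and Bmp7 is known for its requirement in nephron formation and for opposing TGF-beta in tubule cells.

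Promoter sequences are shown for Tgfb1 and Tgfb2, the ligand genes with lower levels in GFP-positive libraries of every clone, and for Tgfbr3l, the gene with the largest dDAVP difference of the set. Of the 10 genes, 6 had an entry in the RefSeq (GRCm38.p6) promoter set used here. Each line gives the 250 bases before the transcription start, 5′ to 3′ on the gene's strand, and capitals mark matches to the motifs CAGACA (a Smad binding sequence) or TGACG (the core of the cAMP response element, here met as CGTCA on the other strand).
Tgfb1, chr7:25686752-25687001, plus strand: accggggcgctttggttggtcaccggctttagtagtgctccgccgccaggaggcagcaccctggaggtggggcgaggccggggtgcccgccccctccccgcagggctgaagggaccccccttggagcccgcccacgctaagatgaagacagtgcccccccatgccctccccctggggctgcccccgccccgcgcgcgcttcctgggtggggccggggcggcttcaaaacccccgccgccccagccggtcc
Tgfb2, chr1:186705990-186706239, minus strand: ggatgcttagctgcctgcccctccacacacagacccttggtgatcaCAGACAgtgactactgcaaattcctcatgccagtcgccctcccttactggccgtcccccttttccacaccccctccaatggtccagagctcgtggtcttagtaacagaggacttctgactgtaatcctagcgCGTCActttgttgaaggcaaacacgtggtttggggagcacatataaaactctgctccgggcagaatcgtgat
Tgfbr3l, chr8:4247964-4248213, plus strand: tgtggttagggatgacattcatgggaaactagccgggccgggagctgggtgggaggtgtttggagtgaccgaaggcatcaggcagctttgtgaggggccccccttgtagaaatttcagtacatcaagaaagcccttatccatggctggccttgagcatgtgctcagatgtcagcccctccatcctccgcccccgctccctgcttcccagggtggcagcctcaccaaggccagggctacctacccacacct
In the Tgfb2 sequence CAGACA begins 204 bases and CGTCA 72 bases before the start. Neither motif occurs in the other 2 sequences. Over the 7 promoters of the 6 genes (Tgfbr1 has an alternative start), searched on both strands, CAGACA was found in 2 and TGACG in 1, against 17.1% and 17.8% of 32851 promoters of the same length. GGCGCC, a BMP Smad motif, was found in 1 of 7 (a Tgfbr1 promoter; 9.59% of all promoters), and neither TGACGTCA (1.55%), which contains TGACG, nor GTCTAGAC (0.167%) was found. A match is a description of the letters and no evidence of binding.

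Expression is given as the authors' TPM, a transcript abundance per length that scales every library to the same total and keeps no depth, so the sequencing depth is unknown and replicate spread is the measure of precision. Genes at 1 TPM or more numbered 12293 to 14341 per library. The count of genes above 0 TPM split the libraries into 10 with 17177 to 20250 genes and 12 with 23135 to 31292, and both kinds occurred in both WT groups and in both GFP fractions. GFP was 5.31 to 17.6 TPM in the GFP-negative and 1065 to 1567 TPM in the GFP-positive libraries, and Aqp2 was 66.5 to 1680 and 2008 to 7254 TPM, so the labels of the fractions hold in all 16. Collecting duct identity was checked by markers: all 7 epithelial markers and 9 of 10 principal-cell markers averaged at least 1 TPM (Scnn1b, 0.36 TPM, did not), with epithelial sums of 13447 to 15122 TPM in GFP-negative and 14874 to 17853 TPM in GFP-positive libraries. Summed fibroblast markers stayed at or below 1.69 TPM and intercalated-cell markers at or below 1.12 TPM, with 0 genes of either list averaging 1 TPM. Endothelial sums reached 4.45 TPM (1 of 6 markers averaged 1 TPM or more, Vwf at 1.32) and proximal tubule sums 16.3 TPM (1 of 5, Lrp2 at 7.81). Proximal tubule sums were 0.94 to 13.2 TPM in GFP-negative and 3.94 to 16.3 TPM in GFP-positive libraries. Of 6 immune markers, 2 averaged above 1 TPM (Csf1r 13.1 and Cd68 6.23), with sums of 17.4 to 31.6 TPM in GFP-negative and 11.9 to 21.7 TPM in GFP-positive libraries, while Ptprc (0.56) and Itgam (0.0027), which define leukocytes, were near 0. The part of these marker differences in the results was not tested. GFP-negative replicate 1 of clone C50 stood apart, with 7.87% of TPM in ribosomal protein genes against 3.67 to 5.86% in the other 21 libraries, and values without it are given beside several of the results that use it. In bulk RNA, fewer cells of a kind and less RNA per cell cannot be told apart.

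**Figure D1:**
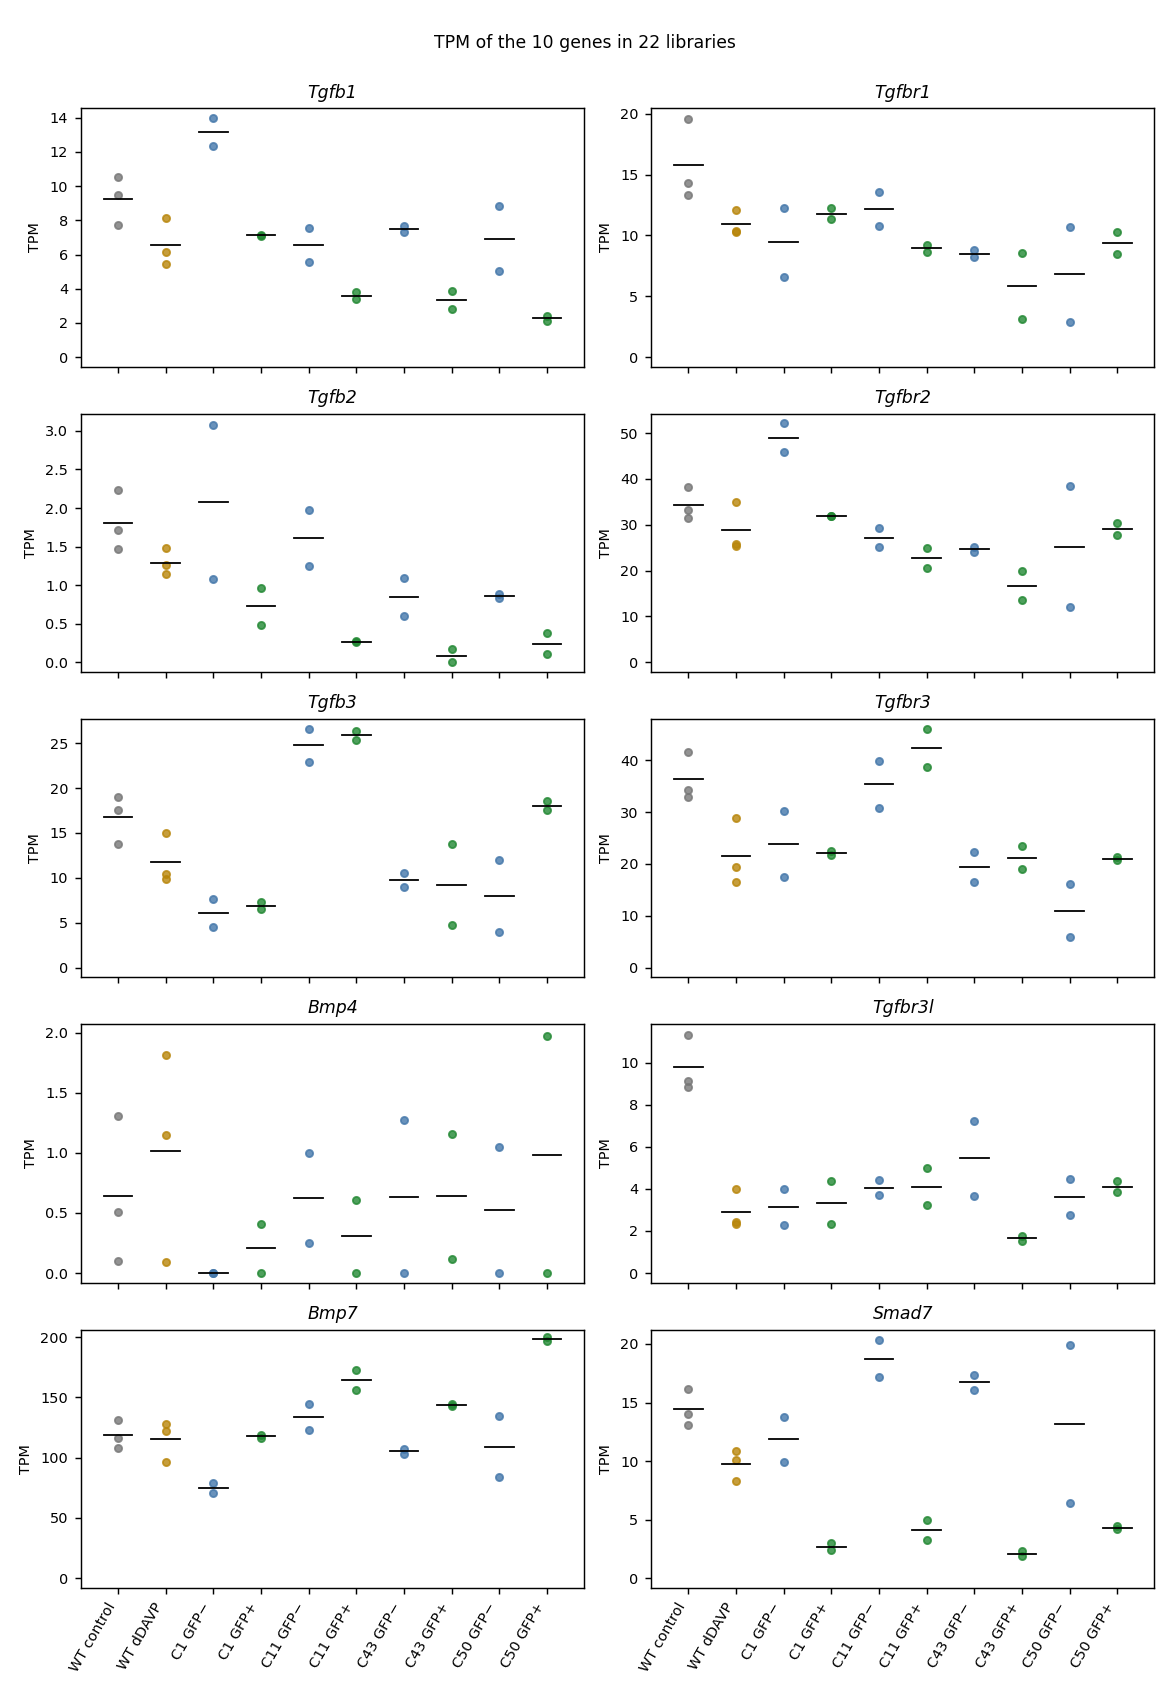
TPM (vertical axes, linear) of the 10 genes in each of the 22 libraries (points) by group, with group means as bars: WT groups n = 3, clone fractions n = 2. Smad7 is at 1.89 to 4.94 TPM in all 8 GFP-positive libraries and at 6.40 to 20.3 TPM in all 8 GFP-negative libraries, and Tgfbr3l is above 8.8 TPM only in the 3 WT control libraries.

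Over the 22 libraries the transcript levels of the 10 genes spanned more than 2 orders of magnitude. Bmp7 (ENSMUSG00000008999) was highest, with a mean of 127 TPM and a range of 71.0 to 199.9 TPM, which placed it 1591st of all entries. The receptors Tgfbr2 (ENSMUSG00000032440) and Tgfbr3 (ENSMUSG00000029287, betaglycan, the co-receptor that presents TGF-beta ligands) followed at 29.2 and 25.7 TPM, ahead of Tgfb3 (ENSMUSG00000021253) at 13.8, Tgfbr1 (ENSMUSG00000007613) at 10.3, Smad7 (ENSMUSG00000025880) at 9.99, Tgfb1 (ENSMUSG00000002603) at 6.74 and Tgfbr3l (ENSMUSG00000089736, a betaglycan-like protein) at 4.41 TPM. Tgfb2 (ENSMUSG00000039239) averaged 1.03 TPM and Bmp4 (ENSMUSG00000021835) 0.58 TPM. Bmp4 was listed at 0 in 7 libraries and reached 1 TPM in 8, with no group standing apart from its neighbour in the order of levels, and it was too low for the tests. Its level followed the split by genes detected: it was 0 to 0.12 TPM in all 10 libraries with fewer genes detected and 0.25 to 1.97 TPM in all 12 with more. Ordered by group mean, the libraries of neighbouring groups overlapped in 9 of 9 neighbour pairs for Tgfbr1, 8 for Tgfb3, 7 each for Tgfb2, Tgfbr3 and Tgfbr3l, 6 each for Tgfbr2, Smad7 and Bmp7, and 4 for Tgfb1. Groups this small can stand apart at near means, as did C43 GFP-negative (7.50 TPM) and C1 GFP-positive (7.13 TPM) for Tgfb1. The share over all genes was not counted, so these counts say nothing particular about the set.

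The question asked by the GFP fractions, per the series title, is how cells differ in Aqp2 expression. Between the fractions, GFP-positive cells had less Smad7, less Tgfb1 and more Bmp7 than GFP-negative cells of the same clone, in all 4 clones. Receptor genes did not pass the test in either direction. Of the 10 genes, 8 had a mean of at least 1 TPM in the 16 clone libraries and were tested, 1 was called higher and 2 lower at an adjusted p under 0.05 (limma, Benjamini-Hochberg over 13113 genes). Over all tested genes 35.3% were called, 12.1% higher and 23.2% lower, so 3 of 8 is close to the share of all genes and says nothing particular about the set. The median difference of the 8 genes was −0.13 on the log2(TPM + 1) scale, against −0.06 for all genes tested. Of all calls 34.2% were higher in GFP-positive cells as deposited, and 51.0% and 50.5% after median-ratio and quantile scaling of the libraries.

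Smad7, the inhibitory Smad, had the widest span of the 10 genes over the 10 group means, 2.67 on the log2(TPM + 1) scale. In GFP-negative libraries it was 9.91 and 13.8 TPM in C1, 20.3 and 17.2 TPM in C11, 17.4 and 16.1 TPM in C43, and 6.40 and 19.9 TPM in C50. In GFP-positive libraries it was 2.39 and 2.98 TPM in C1, 4.94 and 3.28 TPM in C11, 2.32 and 1.89 TPM in C43, and 4.43 and 4.23 TPM in C50. The 8 GFP-positive libraries were all below the 8 GFP-negative ones, without overlap. The share of all genes separated in this way was not counted, here or for the genes and clones below. The lowest GFP-negative value was that of the C50 library with the high ribosomal share. The means were 15.1 ± 4.86 TPM (SD, n = 8) and 3.31 ± 1.12 TPM (SD, n = 8), a ratio of 0.219. Smad7 fell by 1.87 on the log2 scale (SE 0.209, adjusted p = 1.03e-05 by limma), and by 2.07 (adjusted p = 3.44e-08) without that library. Taken clone by clone, with 1 shared estimate of the spread, the log2 differences were −1.79 in C1 (adjusted p = 0.0149), −1.96 in C11 (adjusted p = 0.00991), −2.51 in C43 (adjusted p = 0.00117) and −1.22 in C50 (adjusted p = 0.0349, limma). Per clone, 7.22%, 7.94%, 16.3% and 26.6% of genes were called in C1, C11, C43 and C50. Without GFP-negative replicate 1 the difference in C50 was −1.97 (adjusted p = 0.000313), with the lone remaining GFP-negative library assumed to vary like the other groups. The call in C50 was lost in 10 of 26 other settings, in C1 in 4, in C11 in 3 and in C43 in 0.

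Among the TGF-beta ligand genes, Tgfb1 fell in GFP-positive cells. Its TPM in GFP-negative against GFP-positive libraries was 12.4 and 14.0 against 7.17 and 7.09 in C1, and 5.57 and 7.53 against 3.83 and 3.37 in C11. In C43 the values were 7.33 and 7.67 against 3.86 and 2.80 TPM, and in C50 5.04 and 8.81 against 2.42 and 2.11 TPM. Within every clone both GFP-positive libraries were below both GFP-negative ones, while across clones the fractions overlapped, with C1 high in both. The means were 8.54 ± 3.13 and 4.08 ± 1.98 TPM (SD, n = 8 each), and the log2 difference was −0.93 (SE 0.122, adjusted p = 4.16e-05 by limma). Clone by clone the differences were −0.80, −0.70, −0.98 and −1.24 (C1, C11, C43, C50 in order; adjusted p 0.0739, 0.108, 0.0172 and 0.00337, limma). The call in C43 was lost in 3 of 26 other settings, and C1 passed in 6 and C11 in 3. Without C50 GFP-negative replicate 1 the difference over the clones was −0.97 (adjusted p = 2.19e-05) and that in C50 −1.59 (adjusted p = 0.000556).

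Tgfb2 was scarcer, and its clone mean of 0.84 TPM left it out of the test. It was 1.08 and 3.07 TPM in GFP-negative against 0.97 and 0.48 TPM in GFP-positive libraries of C1, and 1.25 and 1.98 against 0.28 and 0.26 TPM in C11. In C43 it was 1.09 and 0.60 against 0.17 and 0.00 TPM, and in C50 0.89 and 0.84 against 0.11 and 0.38 TPM. GFP-positive libraries were again below the GFP-negative ones in each of the 4 clones. With no filter on low values the log2 difference of Tgfb2 was −0.79 (adjusted p = 0.0053 by limma), on a scale that understates changes of genes this low.

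Tgfb3 varied by clone more than by fraction. In C11 it was 22.9 and 26.6 TPM in GFP-negative and 25.4 and 26.3 TPM in GFP-positive libraries, the highest of the 10 groups, and in C1 it was 4.51 and 7.59 against 6.48 and 7.32 TPM, the lowest. C43 gave 8.94 and 10.5 against 13.8 and 4.72 TPM, and C50 gave 4.02 and 12.0 against 17.5 and 18.5 TPM. Fraction means were 12.1 ± 8.30 and 15 ± 8.40 TPM (SD, n = 8 each), with a log2 difference of 0.32 (SE 0.248, adjusted p = 0.356 by limma), and of 0.11 (adjusted p = 0.64) without C50 GFP-negative replicate 1.

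With Tgfb1 and Tgfb2 lower and Tgfb3 not, the mix of TGF-beta ligand transcripts was different in the fractions. Tgfb1 made up 62.8% of the summed TPM of the 3 genes in GFP-negative and 48.3% in GFP-positive cells of C1, 19.8% and 12.1% in C11, 41.6% and 29.5% in C43, and 45.6% and 11.1% in C50 (means of 2 libraries). Tgfb3 made up 28.0% and 46.7%, 75.4% and 87.0%, 53.7% and 70.1%, and 47.9% and 87.8% in the same order. The share of Tgfb3 was larger in the GFP-positive fraction of each clone, and the clones differed more from each other than did the WT groups, where it was 60.2% without and 59.8% with dDAVP. In C50 GFP-negative replicate 2 alone, without the library that stood apart, Tgfb1 was 40.6% and Tgfb3 55.5%. These shares are a description and were given no test.

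**Figure D2:**
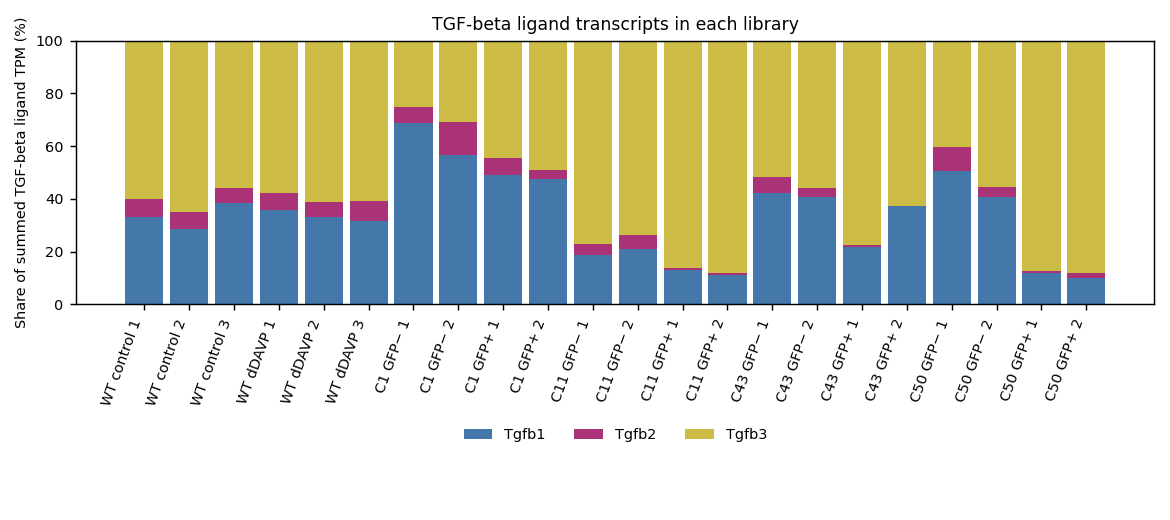
Share (vertical axis, percent) of Tgfb1, Tgfb2 and Tgfb3 in their summed TPM in each of the 22 libraries (stacked bars, 1 bar per library). Tgfb3 takes 86.1 to 88.1% in the GFP-positive libraries of C11 and C50 and 25.1 to 30.8% in the GFP-negative libraries of C1.

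Bmp7, a BMP ligand of tubule epithelium, rose in GFP-positive cells. It was 71.0 and 78.9 TPM in GFP-negative against 118.7 and 116.6 TPM in GFP-positive libraries of C1, and 122.7 and 144.4 against 156.2 and 172.5 TPM in C11. In C43 it was 107.3 and 103.4 against 144.6 and 142.8 TPM, and in C50 84.0 and 134.5 against 199.9 and 196.7 TPM. Both GFP-positive libraries were above both GFP-negative ones in each of the 4 clones, although the highest GFP-negative library, from C11, was above the GFP-positive libraries of C1. The means were 105.8 ± 26.8 and 156 ± 31.9 TPM (SD, n = 8 each), a rise of 0.57 on the log2 scale (SE 0.0991, adjusted p = 0.000433 by limma). It was 0.48 (adjusted p = 1.52e-05) without C50 GFP-negative replicate 1. Clone by clone the differences were 0.65, 0.30, 0.44 and 0.89 in C1, C11, C43 and C50 (adjusted p 0.0485, 0.384, 0.113 and 0.00368, limma), and the call in C1 was lost in 19 of 26 other settings, while C43 passed in 5 and C11 in 3. The difference in C50 was 0.56 (adjusted p = 0.00449) without its GFP-negative replicate 1.

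None of the 4 receptor genes passed the test between fractions (limma), beside 35.3% called of all genes tested. With 4 genes, 0 called says nothing particular about receptors. Tgfbr2, the type II receptor, was 31.5 ± 13.1 and 25.1 ± 6.65 TPM (SD, n = 8 each), with both GFP-positive libraries below both GFP-negative ones in 3 of 4 clones and a log2 difference of −0.25 (SE 0.199, adjusted p = 0.368). This depended on C50 GFP-negative replicate 1, where Tgfbr2 was 12.1 TPM against 38.4 TPM in replicate 2: without that library the difference was −0.45 (adjusted p = 0.000715) and called. Tgfbr1, the type I kinase, was 9.23 ± 3.40 and 8.98 ± 2.75 TPM (SD, n = 8 each), a difference of −0.01 (SE 0.252, adjusted p = 0.981) whose sign turned in 13 of 30 other settings and which was −0.21 (adjusted p = 0.386) without C50 GFP-negative replicate 1. Tgfbr3 was 22.4 ± 10.7 and 26.6 ± 9.93 TPM (SD, n = 8 each), a difference of 0.34 (SE 0.194, adjusted p = 0.199) that was called under median-ratio (0.42, adjusted p = 0.0463) and quantile scaling (0.42, adjusted p = 0.0224), and that was 0.16 (adjusted p = 0.289) without C50 GFP-negative replicate 1. Tgfbr3l was 4.06 ± 1.49 and 3.30 ± 1.30 TPM (SD, n = 8 each), a difference of −0.25 (SE 0.218, adjusted p = 0.417). In C43 alone it was 3.67 and 7.23 TPM in GFP-negative and 1.53 and 1.76 TPM in GFP-positive libraries, with a log2 difference of −1.23 (adjusted p = 0.0348) that was lost in 11 of 25 other settings. Gm49320, which shares exons with Tgfbr3l as described with the WT cells, was 0.97 ± 0.354 and 1.38 ± 0.375 TPM (SD, n = 2 each) in these fractions of C43, and the sum of both genes was 6.42 ± 2.16 and 3.02 ± 0.537 TPM. In the other 3 clones the differences of Tgfbr3l lay between −0.00 and 0.17.

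**Figure D3:**
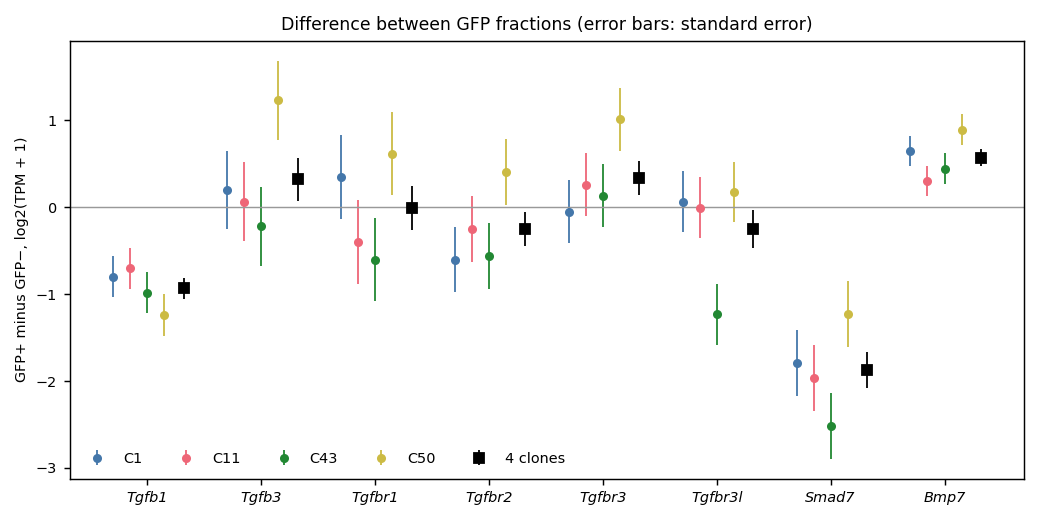
Difference between GFP-positive and GFP-negative libraries (vertical axis, log2(TPM + 1)) of the 8 tested genes in each clone (coloured circles, 2 against 2 libraries) and over the 4 clones (black squares, 8 against 8), with standard errors as bars. Tgfb1 and Smad7 lie below 0 and Bmp7 above 0 in all 4 clones, and the receptor genes lie on both sides.

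Whether these differences themselves differed between clones was tested by the interaction of fraction and clone. Of the 8 genes 0 were called (0 also at an unadjusted p under 0.05), against 0.869% of all genes, 1691 of which had an unadjusted p under 0.05. The interaction calls of the members changed without C50 GFP-negative replicate 2, a fit that leaves replicate 1 as the only GFP-negative library of C50. The share of all genes called in that fit was not counted, so its calls are not read as a result about the members. Clone levels at equal fraction differed for 4 of the 8 genes, against 28% of all genes: Tgfb1 (adjusted p = 0.00114), Tgfb3 (0.00603), Bmp7 (0.00798) and Tgfbr3 (0.0109; moderated F-test, limma). Tgfb1 was highest in C1, where Tgfb3 and Bmp7 were lowest, and Tgfb3 and Tgfbr3 were highest in C11. Without C1 only 1 gene, Tgfbr3, was still called, and without C11 2 were, whereas 6 were called without C50 GFP-negative replicate 1. The share of all genes was not counted in these smaller fits, so 28% is no reference for them. For Tgfbr2 (adjusted p = 0.0875), Tgfbr1 (0.435), Smad7 (0.464) and Tgfbr3l (0.759) the test was not passed with all libraries.

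In WT cells, dDAVP went with lower levels of most of the 10 genes, as a description only, since this contrast contributed to the choice of the set. Tgfbr3l was 8.85, 9.12 and 11.3 TPM in the control libraries and 2.41, 4.00 and 2.32 TPM with dDAVP, means of 9.77 ± 1.36 and 2.91 ± 0.945 TPM (SD, n = 3 each) and a log2 difference of −1.48 (SE 0.202). Each control library was above each dDAVP library. The 16 dDAVP-treated clone libraries, from sorted reporter lines, were at 1.53 to 7.23 TPM. They lay below the same 3 controls, whose values the rule used, so this adds no independent support. Tgfbr3l shares exonic sequence with Gm49320 on the same strand in the GENCODE vM21 annotation, so the split of reads between them is uncertain. Gm49320 was 3.21 ± 0.595 and 1.86 ± 0.035 TPM (SD, n = 3 each), and the sum of both genes was 12.98 ± 1.23 and 4.77 ± 0.95 TPM (SD, n = 3 each). Over 15 other settings the difference of Tgfbr3l lay between −1.75 and −1.29.

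The control and dDAVP libraries did not overlap for 3 further genes either. Tgfbr3 was 41.6, 33.0 and 34.3 TPM in controls and 16.5, 28.9 and 19.4 TPM with dDAVP (log2 difference −0.75, SE 0.200). Smad7 was 13.1, 14.1 and 16.2 TPM against 10.8, 10.1 and 8.27 TPM (−0.53, SE 0.136). Tgfbr1 was 19.6, 13.3 and 14.3 TPM against 10.3, 12.1 and 10.4 TPM (−0.48, SE 0.158). In all 4 genes the dDAVP libraries were the lower ones, as they were without overlap for 28.7% of all 13494 genes, while 7.12% had them all above.

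The other 6 genes overlapped between the WT groups. Tgfb1 was 10.5, 7.75 and 9.46 TPM against 6.14, 8.12 and 5.43 TPM (−0.44), Tgfb3 was 19.0, 17.6 and 13.7 TPM against 9.89, 15.01 and 10.4 TPM (−0.49), and Tgfb2 was 2.23, 1.72 and 1.47 TPM against 1.14, 1.48 and 1.26 TPM (−0.29). Tgfbr2 was 38.1, 33.2 and 31.5 TPM against 25.4, 35.0 and 25.9 TPM (−0.26). Bmp4 was 1.31, 0.51 and 0.10 TPM against 0.09, 1.81 and 1.15 TPM (0.26, between −0.03 and 0.65 over 15 other settings), and the lowest value in each group is that of its only library with fewer genes detected. Bmp7 was 131.3, 116.4 and 108.2 TPM against 96.1, 128.3 and 122.0 TPM, a log2 difference of −0.05 that turned to 0.13 after median-ratio scaling. The median of the 10 differences was −0.46, against −0.16 for the 13494 genes tested, a median that median-ratio scaling moved to 0.0003. After that scaling the differences were −1.34 for Tgfbr3l, −0.59 for Tgfbr3, −0.37 for Smad7 and −0.31 for Tgfbr1. They were −0.29 for Tgfb1, −0.33 for Tgfb3, −0.18 for Tgfb2 and −0.09 for Tgfbr2. Quantile scaling gave −0.55 for Tgfbr3, −0.30 for Smad7, −0.24 for Tgfbr1, −0.24 for Tgfb1, −0.26 for Tgfb3, −0.20 for Tgfb2 and −0.06 for Tgfbr2.

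The other genes of the pathway were counted from 8 lists with 118 different genes. Between GFP fractions 56 were expressed enough to be tested, and 24 of them passed the threshold, 42.9% against 35.3% of all genes. GFP-positive cells had more of 5 and less of 19. Their median log2 difference was −0.20. Without C50 GFP-negative replicate 1, 38 were called, and the count over all genes went from 4626 to 6043.

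Most of the tested TGF-beta target genes fell: of 15 on the list 9 were tested, 7 were lower and 0 higher (23.2% and 12.1% of all genes), 2 did not pass, and the median log2 difference was −0.75 against −0.06 for all genes. Fn1, the matrix protein fibronectin, was 28.9 to 103.2 TPM in GFP-negative and 0.62 to 12.6 TPM in GFP-positive libraries, without overlap (log2 difference −3.29, adjusted p = 2.12e-08 by limma). Pmepa1, a feedback inhibitor that binds receptor-activated Smads, was 121.8 to 156.0 and 34.1 to 54.8 TPM (−1.71, adjusted p = 1.15e-08), also without overlap. Col4a1, a basement membrane collagen, fell from 10.4 ± 6.52 to 3.79 ± 4.89 TPM (SD, n = 8 each; −1.58, adjusted p = 5.75e-05), Itgb6, the integrin subunit that activates latent TGF-beta, from 50.2 ± 17.9 to 33.1 ± 10.9 TPM (−0.59, adjusted p = 0.00645, lost in 3 of 30 other settings), and Ccn2, a matricellular protein, from 2895 ± 817 to 1868 ± 977 TPM (−0.75, adjusted p = 0.000489), with a difference that varied by clone (interaction, adjusted p = 0.0299, lost in 20 of 27 other settings) and was 0.00 in C1. Tagln, a smooth muscle actin-binding protein outside the rule for named genes because of its low level, was also counted as lower (−0.62, adjusted p = 0.0256). At means of 1.64 TPM in GFP-negative and 0.63 TPM in GFP-positive libraries, Tagln passed the 1 TPM filter only through the GFP-negative ones. Skil (−0.40, adjusted p = 0.0823) and Cdkn2b (−0.15, adjusted p = 0.0715) did not pass. The count of 7 was the same after median-ratio and quantile scaling. It was 5 with a filter of 5 TPM and 3 among the libraries with fewer genes detected.

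**Figure D4:**
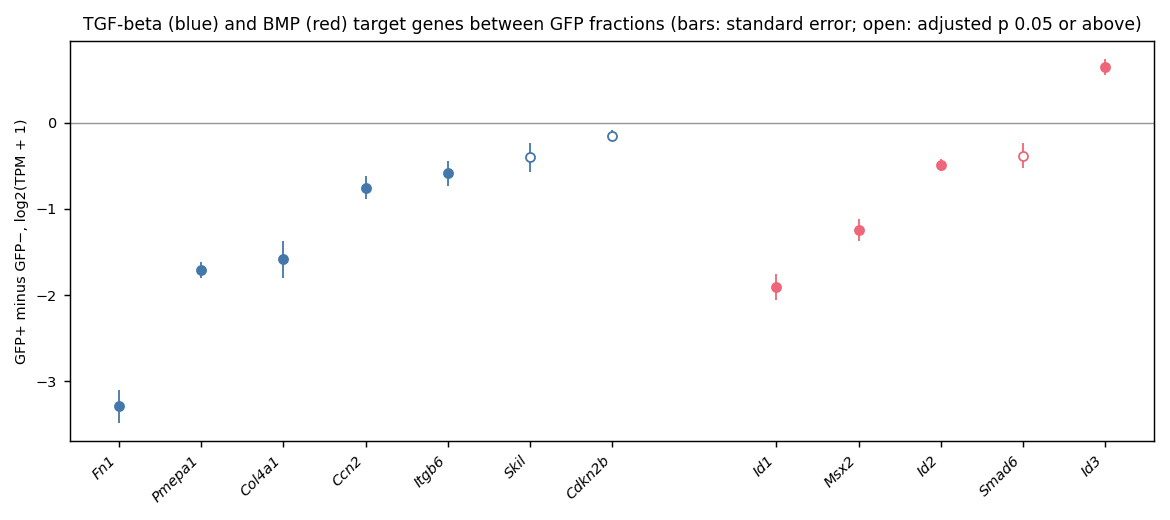
Difference between GFP-positive and GFP-negative libraries (vertical axis, log2(TPM + 1), 8 against 8 libraries, bars: standard error) of the tested TGF-beta target genes (blue) and BMP target genes (red) with a mean of at least 5 TPM. Filled circles passed the adjusted p threshold. All 7 TGF-beta target genes shown lie below 0, 5 of them filled, and among the genes shown Id3 alone lies above 0.

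BMP target genes were called in both directions: of 13 on the list 5 were tested, 3 were lower and 1 higher, beside 23.2% and 12.1% of all genes. Id1, Id2 and Id3 encode inhibitors of basic helix-loop-helix factors. Id1 fell from 25.4 ± 2.60 to 6.45 ± 2.65 TPM (SD, n = 8 each; log2 difference −1.91, adjusted p = 3.62e-07 by limma) with no overlap of the fractions, and Id2 from 165.9 ± 54.8 to 116.2 ± 32.9 TPM (−0.49, adjusted p = 7.31e-05). Id3 rose from 171 ± 85.4 to 253 ± 105.7 TPM (0.65, adjusted p = 6.83e-05). Msx2, a homeobox factor, fell from 8.27 ± 5.00 to 3.18 ± 2.62 TPM (−1.24, adjusted p = 4.94e-06), and Smad6, the inhibitory Smad of the BMP branch, did not pass (−0.38, adjusted p = 0.0508).

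Among the secreted antagonists and modulators 5 of 20 were tested, with 2 lower and 1 higher, beside 23.2% and 12.1% of all genes. Fstl3, which binds activins, was 16.2 to 43.5 TPM in GFP-negative and 3.46 to 8.72 TPM in GFP-positive libraries (−2.03, adjusted p = 4.09e-08 by limma). Fst, follistatin, at a mean too low for the rule on named genes, was 2.14 to 15.2 against 0 to 1.07 TPM (−2.20, adjusted p = 4.44e-06). At means of 6.33 and 0.41 TPM, Fst passed the 1 TPM filter only through GFP-negative libraries. Nbl1, a BMP antagonist, was higher (0.25, adjusted p = 0.0155, lost in 4 of 30 other settings). Of 29 other ligand genes 5 were tested: Bmp1, a metalloprotease that cleaves procollagens and not a receptor ligand, fell from 29.8 ± 8.84 to 4.43 ± 1.64 TPM (SD, n = 8 each; −2.52, adjusted p = 1.58e-07), and Inha, the inhibin alpha subunit, was higher (0.57, adjusted p = 0.048, lost in 22 of 30 other settings).

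Of the 7 further Smad genes 6 were tested and 0 called, with 2 at an unadjusted p under 0.05, the largest difference among them being that of Smad3 (−0.41, adjusted p = 0.0682 by limma). Of 16 other receptor genes 7 were tested: Rgmb, a BMP co-receptor, was higher (0.46, adjusted p = 0.0334, lost in 14 of 30 other settings) and Acvr1, a type I receptor, lower (−0.56, adjusted p = 0.0454). Among 14 intracellular regulators, all tested, 5 were lower and 1 higher. Over all genes tested 23.2% were lower and 12.1% higher, which applies to each list of this paragraph. Besides Pmepa1 these were Tgif2 (−1.48, adjusted p = 7.83e-05) and Tgif1 (−0.57, adjusted p = 0.000207), homeobox corepressors of Smad2, the Smad phosphatase gene Ppm1a (−0.26, adjusted p = 0.0279, lost in 15 of 30 other settings), the receptor-binding Fkbp1a (−0.20, adjusted p = 0.0048, lost in 3 of 30 other settings, among them median-ratio scaling with −0.12), and the ubiquitin ligase gene Nedd4l, which was higher (0.67, adjusted p = 0.00106). Of the 13 latency and activation genes 9 were tested and 2 were lower, Itgb6 and Ltbp1, a latent TGF-beta binding protein (−1.55, adjusted p = 6.96e-06, below the level set for named genes). With means of 3.81 and 0.58 TPM, Ltbp1 passed the 1 TPM filter only through GFP-negative libraries.

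With dDAVP in WT cells 10 of the 59 tested pathway genes were called, 2 higher and 8 lower, against 8.88% of all genes (2.37% higher, 6.51% lower). Of all calls 26.7% were higher as deposited, and 59.5% and 54.1% after median-ratio and quantile scaling, and the pathway count was 5 and 6 there. Id3 rose from 75.4 ± 2.21 to 161 ± 13.1 TPM (SD, n = 3 each; log2 difference 1.08, adjusted p = 0.00066 by limma) and passed in 15 of 15 other settings. Lower were Inha (−0.89, adjusted p = 0.0243), Col4a1 (−0.85, adjusted p = 0.0113), the latent TGF-beta binding proteins Ltbp4 (−0.84, adjusted p = 0.0162) and Ltbp3 (−0.69, adjusted p = 0.029), and Itgb6 (−0.78, adjusted p = 0.00978). Tgif2 (−0.55, adjusted p = 0.0348), Smad6 (−0.43, adjusted p = 0.0283) and Ccn2 (−0.35, adjusted p = 0.0497) were also lower, and Gdf15, a stress-induced ligand, was higher (0.33, adjusted p = 0.0201). Each of these 9 lost its call in 2 to 11 of 15 other settings. Among the lists, 3 of 10 latency and activation genes and 3 of 10 TGF-beta target genes were lower (Itgb6 is on both lists), with 0 higher. Fn1 (−0.57, adjusted p = 0.183), Pmepa1 (−0.09, adjusted p = 0.619) and Id1 (−0.31, adjusted p = 0.165), which fell between GFP fractions, did not pass here, and the difference between the comparisons was not tested.

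Of 10207 genes with a mean of at least 5 TPM, those whose group means were most like Smad7 over the 10 groups were Lrp8 (r = 0.988), Rnps1-ps (r = 0.988) and Arap2 (r = 0.982), and those most like Tgfbr3l were Zcchc3 (r = 0.937), Mfap1a (r = 0.930) and Tgfbrap1 (r = 0.915), by Pearson correlation of log2(TPM + 1). These are the top ranks of many correlations over 10 points that share fractions and clones, and Rnps1-ps, a pseudogene copy, may share reads with its parent gene. Among the set itself, the strongest correlation over the same 10 group means was that of Tgfb1 with Bmp7 (r = −0.93), followed by Tgfb1 with Tgfb2 (r = 0.88).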

How the data were processed

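Libraries were made with SMART-Seq HT and Nextera XT and sequenced paired-end, per the labels' protocols. STAR and RSEM are named in the submitters' processing notes, without versions. The build and annotation are not given in the sources used here. The authors deposited TPM per gene and library in a table of 55415 lines. The 980 lines sharing 79 symbols were summed, which left 54514 entries, and 16 further columns (means, a maximum and ratios) were not used. No 2 libraries were identical (0 pairs).

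Differences are of log2(TPM + 1), a pseudocount of 1 that understates changes of low genes. Genes with a mean of at least 1 TPM over the libraries of a fit were tested with limma 3.58.1 in R 4.3.3 (linear model, trended moderation, two-sided, Benjamini-Hochberg over all tested genes, call threshold 0.05), with clone as a covariate between GFP fractions and, per clone, a mean per clone and fraction. The code was tested on simulated data. Depth is unknown, since TPM keep none. Groups come from the sample titles.

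All 10 genes are named, and of the pathway lists up to 6 called genes per list with a mean of at least 5 TPM, with the 3 genes most like Smad7 and Tgfbr3l over group means, plus genes outside that rule chosen after their values were seen: Tagln, Fst, Ltbp1, Acvr1 and the uncalled pathway genes that are named. Other listed genes are counted without being named. The genes and lists were chosen with earlier results of these data known. Alternatives were the pseudocount, the filter, scaling, the trend, a covariate for genes detected, the replicate block, and leaving out libraries or clones. Promoters are from RefSeq (GRCm38.p6), exon overlaps from GENCODE vM21, and neither need be the authors' build.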

Additional observations from a re-analysis of the deposited data

Results flagged for a closer look

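Ccn2, a TGF-beta target gene encoding a matricellular protein, differed between clones in its GFP difference by the interaction of fraction and clone (adjusted p = 0.0299, limma). Its means were 3241 ± 84.9 TPM in GFP-negative and 3249 ± 110.1 TPM in GFP-positive cells of C1 (SD, n = 2 each; log2 difference 0.00). In C11 they were 3936 ± 164 and 2124 ± 86.5 TPM (−0.89), in C43 2212 ± 216 and 972 ± 34.6 TPM (−1.18), and in C50 2189 ± 503 and 1125 ± 36.0 TPM (−0.94). The call of the interaction was lost in 20 of 27 other settings, over which leaving out single libraries gave adjusted p from 0.000514 to 0.169, and it was 0.641 without clone C1.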

How the results depend on the processing

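Smad7, Tgfb1 and Bmp7 kept their direction in all 30 alternatives between GFP fractions and passed the threshold in 29. The exception was the fit of libraries with fewer genes detected, where 0 of the 8 members tested were called (Smad7 −1.66, adjusted p = 0.0879; Tgfb1 −0.92, adjusted p = 0.0905; Bmp7 0.77, adjusted p = 0.0774). That fit left out clone C11, and its only C50 GFP-negative library was replicate 1. In that smaller set 303 genes, 7 other pathway genes and 3 TGF-beta target genes were called, against 4626, 24 and 7 with all 16 libraries. Leaving out single libraries gave 20 to 38 other pathway genes and 3 to 4 members between fractions. The interaction calls of members changed only without C50 GFP-negative replicate 2, a fit with a lone GFP-negative library of C50. Members that differed between clones numbered 1 without clone C1 and 2 without clone C11, against 4, and 5 under median-ratio scaling, quantile normalization and without clone C50, with 4 to 6 when single libraries were left out. The share of all genes that differed between clones was not counted in these fits. Tgfbr2 was also called without clone C50 (−0.47, adjusted p = 0.0035) and among libraries with more genes detected (−0.39, adjusted p = 0.0215).

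The sign of Tgfbr1 turned to 0.066 under median-ratio scaling, 0.086 under quantile normalization, 0.12 without clone C11, 0.19 without clone C43 and 0.19 among libraries with fewer genes detected, and single libraries left out gave −0.21 to 0.15. Tgfbr3l turned to 0.08 without clone C43. Apart from the smaller sets, the cause was not tested.

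The dDAVP calls in WT cells depended on the processing. Against 1198 genes, 442 were called with all genes above 0 tested, 756 under median-ratio scaling, 691 with no trend, 2694 with genes detected as a covariate and 101 among libraries with more genes detected, and single libraries left out gave 314 to 2038. Other pathway genes, 10 with all libraries, numbered 4 with all genes above 0, 5 under median-ratio scaling, 6 under quantile normalization and 1 among libraries with more genes detected, and 2 to 13 with single libraries left out.

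With the replicate number as a block, 122 genes and 1 other pathway gene were called with dDAVP, and 4259 genes and 3 members between fractions. Same-numbered WT libraries did not deviate together (correlations of deviations −0.208, −0.025 and −0.109), and the clone pairs gave 0.054, 0.015, 0.203 and 0.083. Such correlations cannot show whether same-numbered libraries shared a culture or sort, so pairing is unknown. TPM keep no depth, so what depth limits could not be assessed. Tgfb2 and Bmp4 lie too low for firm statements.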
